A study of Caenorhabditis elegans with 6 samples.

Results

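The *his* genes of *Caenorhabditis elegans* encode histones, the proteins around which DNA is wound in the nucleus. Members were chosen by symbol alone, as every gene in the deposited expression tables whose symbol begins with *his*, and this gave 70 of the 17399 genes listed. Of these, 68 are listed in both tables and all 68 passed the filter on low values, while *his-30* and *his-33* are listed in the second table only. RNA was sequenced from whole worms of the wild-type strain N2 that were kept on NGM agar plates at 20°C for 7 days from young adulthood. Worms of the VK2 group had 0.1 µM VK2 (vitamin K2, a fat-soluble vitamin) in the plates, and control worms had none. All worms were moved to fresh plates daily so that their progeny was left behind. There were 3 libraries per group, named C1, C2, and C3 for control and T1, T2, and T3 for VK2, and nothing in the labels says whether they came from separate cultures, so a p-value measures only the spread between these libraries. Values are FPKM (fragments scaled by transcript length and by the number of mapped fragments in the library), summed over the transcripts of a gene.

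A nucleosome holds histones H2A, H2B, H3, and H4, and histone H1 sits on the linker DNA between nucleosomes. Most animals make the bulk of their core histones during S phase from clustered genes without introns, and the RNA of these replication-dependent genes typically ends in a stem-loop in place of a poly(A) tail. Replication-independent genes, such as those of the H3.3 type, often carry introns and are used in cells that no longer divide. Somatic cells of an adult worm do not divide, whereas the germ line and the embryos inside the worm do.

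By class, the 70 genes comprise 17 of H2A, 16 of H2B, 15 of H3, 16 of H4, 4 of the H3.3 type (*his-70*, *his-71*, *his-72*, and *his-74*), 1 H1 gene (*his-24*), and *his-73*, which was given no class because it codes for only 46 residues. In the annotation of WBcel235 (Ensembl release 115), H4 proteins have 103 residues, H2A 127, H2B 122 to 123, H3 136, those of the H3.3 type 134 to 136, and H1 208. The first annotated transcript of 63 genes has 1 exon, and that of 7 genes (*his-24*, *his-35*, *his-37*, *his-41*, *his-71*, *his-72*, and *his-74*) has an intron. The genes lie on chromosomes V (26), IV (22), II (14), X (4), I (2), and III (2). Of the 70, 62 form 31 head-to-head pairs, which are neighbors transcribed away from each other from a shared stretch of 227 to 368 bp. Loci that share a name in that release are called copies here, and their sequences were not compared. Release 115 gives 14 names to more than 1 locus, covering 36 loci, so reads could be divided among copies and the value of a single locus is less certain than that of its class.

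C1 and T1 share the first table, which lists 15882 genes, and the other 4 libraries share the second, which lists 16724. The sum of FPKM was 686279 in C1 and 654910 in T1 but between 369349 and 396004 in the second table, so the tables were treated as normalized separately, and read depth cannot be had from FPKM. Markers of each of germ line, oocytes, embryos, intestine, muscle, hypodermis, and neurons were detected, although only 5 of the 9 early embryo markers listed could be tested. C3 stood apart, with a summed level of 8 oocyte markers of 361 FPKM against 845 to 1080 in C2, T2, and T3, and fitted counts of *his* genes and companion lists are given with and without it.

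The most visible feature of the family was a division by gene structure between the tables. The 61 tested genes with 1 exon summed to 898 FPKM in C1 and 792 in T1. In the second table their sums were 14372 in C2, 11151 in T2, 13603 in T3, and 7252.5 in C3. As a share of all FPKM this was 0.131% and 0.121% in the first table and 1.94% to 3.63% in the second. The 7 genes with an intron summed to 1015 FPKM in C1 and 881 in T1, and to 603 in C2, 536 in T2, 612 in T3, and 495 in C3. Their share stayed between 0.133% and 0.160% in all 6 libraries.

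Gene by gene, the mean level in the second table over that in the first had a median of 18.7 among genes with 1 exon (range 0.853 to 47.4) and of 0.609 among genes with an intron (range 0.366 to 0.917). Over all 14191 genes tested the median was 0.601. In 55 of the 61 genes with 1 exon and in 0 of the 7 with an intron the second table was at least 5 times higher, where 1.77% of all genes were. The remaining 6 genes with 1 exon were *his-31*, *his-38*, *his-60*, *his-68*, *his-70*, and *his-73*, which were singled out after their values were seen. Whether RNA with poly(A) tails was selected, or ribosomal RNA removed, was not given in the sources used here. The table, any sequencing batch, and the library preparation cannot be told apart, and this difference between tables was not tested.

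**Figure D1:**
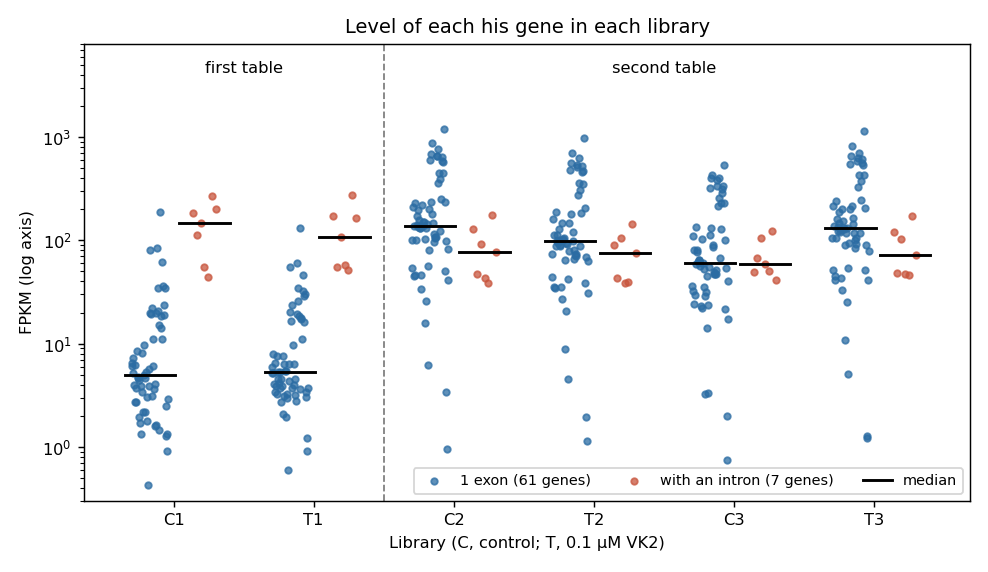
FPKM of the 68 *his* genes in each library on a log axis, with genes of 1 exon in blue, genes with an intron in red, and black bars at the medians. The blue median lies far below the red one in C1 and T1, although single 1-exon genes such as *his-60* reach the red points, while the medians of both kinds are alike in C3 and the blue median is the higher in C2, T2, and T3.

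The classes differed in how far apart the tables were. Among genes with 1 exon the median ratio was 36.8 for H2B (25.6 to 47.4), 24.4 for H3 (9.31 to 46.1), 14.6 for H2A (1.27 to 26.9), and 8.92 for H4 (2.03 to 14.9). The ranges of H2B and H4 did not overlap, but the loci behind them may not be independent. Copies that share a name, and may share reads, are among the H2B loci, namely *his-15* (3 loci), *his-29* (2), *his-52* (4), and *his-58* (2). The same holds for the H4 names *his-14* (3 loci), *his-46* (2), and *his-50* (2). The number of loci may therefore overstate the number of separate values. The order of the classes was not tested.

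**Figure D2:**
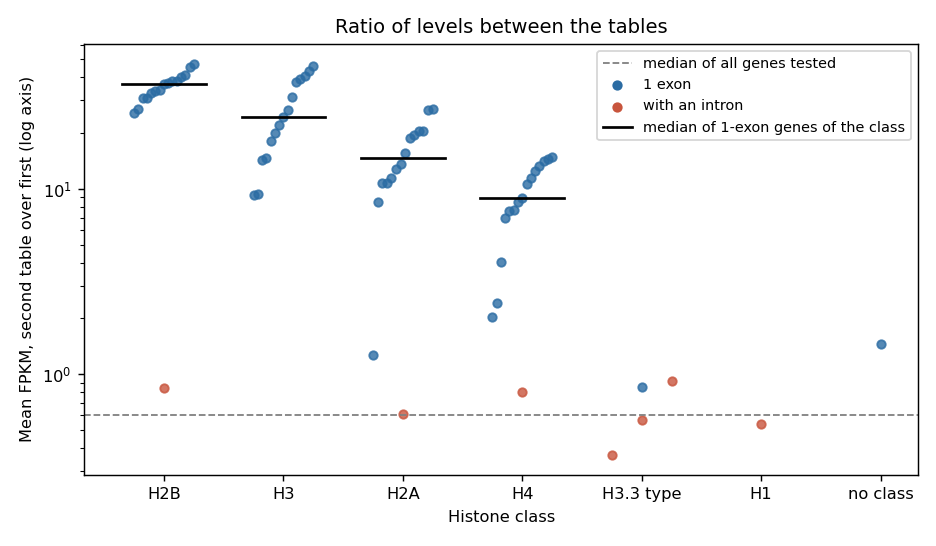
Mean FPKM in the second table over that in the first for each of the 68 genes, on a log axis, by histone class. Blue points are genes of 1 exon, red points genes with an intron, black bars the medians of 1-exon genes, and the dashed line the median of all genes tested at 0.601. All 15 H2B genes of 1 exon lie above all 15 such H4 genes, although both sets include copies that may share reads.

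H2B, which pairs with H2A in the nucleosome, had the most abundant transcripts of the family in the second table. The highest was *his-66*, at 23.8 FPKM in C1, 28.8 in T1, 1193.5 in C2, 993 in T2, and 1157 in T3, with 539 in C3. *his-48* had 22.1, 23.7, 873, 700, 434, and 820 FPKM in the same order of libraries (C1, T1, C2, T2, C3, T3, as in all lists below). *his-58* had 20.8, 25.9, 767, 632, 400, and 710 FPKM. In each of these H2B genes T1 was a little above C1, T2 below C2, and T3 well above C3, with C2 and T3 the highest libraries.

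H3 is the histone whose tail carries many of the known modifications. *his-55* had 19.6, 19.6, 653, 511, 336, and 590 FPKM, and *his-45*, a copy by its shared name, had 19.9, 20.1, 606, 481, 319, and 549. *his-63* had 11.1, 11, 590, 465, 286, and 566 FPKM. In these H3 genes C1 and T1 were nearly equal, and the direction within the second table depended on the pair, with T2 below C2 and T3 above C3.

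H2A was lower than its head-to-head partner H2B in the second table in most pairs. *his-65* had 36.2, 32, 448, 350, 230, and 432 FPKM. *his-57* had 34.9, 34.8, 360, 275, 215, and 330 FPKM, and *his-61* had 18.4, 17.2, 254, 185, 129, and 246. The same order of the second table (C2, T3, T2, C3, from high to low) held in all of these.

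H4, which forms a tetramer with H3, had the highest levels of 1-exon genes in the first table. *his-46* had 80.8, 55.3, 685, 566, 404, and 657 FPKM, and its copy *his-56* had 85, 60.6, 655, 541, 382, and 622. *his-64* had 61.2, 45.8, 569, 474, 334, and 532 FPKM. Unlike H2B, these H4 genes were lower in T1 than in C1. *his-60* was the most abundant 1-exon gene of the first table, with 190 and 132 FPKM in C1 and T1 and 395, 305, 228, and 377 in the second table.

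Genes of the H3.3 type encode the variant that replaces H3 outside S phase, and their levels were not higher in the second table. *his-72* had 269, 273, 175, 144, 124, and 173 FPKM. *his-74* had 202, 163, 77.7, 75.6, 41.2, and 72.6 FPKM, and *his-71* had 44.2, 51.1, 38.8, 39.7, 50.3, and 46.1. C3 was the lowest library of the second table for *his-72* and *his-74* but the highest for *his-71*. The fourth, *his-70*, has no intron and was near the floor of the family, with 1.26, 3.05, 3.37, 1.96, 0.738, and 1.29 FPKM. *his-24*, the H1 gene, had 186, 173, 128, 89.7, 48.9, and 122 FPKM, and with a ratio of 0.432 C3 was further below the mean of C2, T2, and T3 than in any other gene with an intron.

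The transcripts of *his-72* changed places in C3. Transcript Y49E10.6a had 231 FPKM in C1, 224 in T1, 153 in C2, 125 in T2, and 131 in T3, but 0.671 in C3. Transcript Y49E10.6b had 37.2, 48.8, 22.3, 19.5, and 41.8 FPKM in those libraries and 123 in C3. The sum over both in C3, 124 FPKM, was the lowest of the second table. *his-35*, an H2A gene with an intron, showed a similar division: transcript C50F4.13.1 had 71.5 FPKM in C1, 36.5 in T1, and 11.8 in C2 but at most 0.459 in T2, C3, and T3, while C50F4.13.2 had 19.2 to 66.5 in all 6. How the estimate divides reads between such overlapping transcripts was not tested, so gene sums are used for every comparison.

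The comparison the study was designed for is VK2 against control. No *his* gene passed an adjusted p of 0.05 in limma (a linear model with a shared estimate of the spread, fitted to log2(FPKM + 1) with terms for VK2 and the table), and 0% of all 14191 genes did. The smallest adjusted p over all genes was 0.708, and 507 genes had an unadjusted p under 0.05. At that unadjusted threshold 0 of the 68 *his* genes were higher in VK2, against 2.87% of all genes, and 1 was lower, against 0.705%. The all-gene counts were 407 higher and 100 lower, 342 and 149 with quantile normalization, 447 and 57 with upper quartile scaling, and 431 and 157 with the replicate block.

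The fitted difference (VK2 minus control, log2 scale) was above 0 for 59 of 68 *his* genes, where 55.1% of all genes were. Its median was 0.19 with a range of -0.54 to 0.51, against 0.02 for all genes. By structure, 55 of the 61 genes with 1 exon and 4 of the 7 with an intron were above 0. This direction rested on C3. Without C3, 16 of 68 were above 0 (14 of 61 with 1 exon and 2 of 7 with an intron, against 42% of all genes) and the median was -0.12. Without C2, 63 were above 0 and the median was 0.44. In that fit 16 *his* genes were higher at an unadjusted p under 0.05 by limma. Calls rose over all genes too, with 990 of 14191 higher and 596 lower.

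The largest fitted rises were in genes with low FPKM in the first table. *his-4* (H2B) had 1.78, 3.23, 144, 93.2, 44.9, and 133 FPKM, a difference of 0.51 (SE 0.40, adjusted p of 1.00 by limma). *his-20* and *his-22*, H2B copies on chromosome V, had differences of 0.47 (SE 0.34) and 0.45 (SE 0.33). *his-20* had 1.93, 4.2, 156, 102, 64.4, and 148 FPKM, and *his-22* had 1.70, 3.71, 133, 88.4, 56.6, and 125. In all of these T1 and T3 were above their controls and T2 was below, and C2 was the highest library, so VK2 and control libraries overlapped. Without C3 the differences of *his-4*, *his-20*, and *his-22* were 0.05, 0.16, and 0.16. *his-29* and *his-34*, a further H2B couple that turned negative without C3, had differences of 0.44 (SE 0.47) and 0.43 (SE 0.49). *his-29* had 2.17, 2.09, 139, 101, 35.6, and 128 FPKM, and *his-34* had 2.17, 1.96, 132, 94.8, 31.9, and 117.

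Among the largest fitted falls, *his-35* was the only one with an unadjusted p under 0.05. It had 113 FPKM in C1, 55.8 in T1, 47.8 in C2, 42.9 in T2, 48.4 in T3, and 67 in C3. VK2 was lower than control in each of the 3 pairs, although T3 was just above C2. The difference was -0.54 (SE 0.21, n = 3 per group, adjusted p = 1.00 by limma). *his-35* was the only *his* gene that moved the same way in all 3 pairs, where 10.8% of all genes were higher and 9.32% lower in all of them. The call was lost in the second table alone, where the difference was -0.31, and so without C1 or T1. It was also lost without T2 (difference -0.56), without C3 (difference -0.47), and with quantile normalization (-0.51), upper quartile scaling (-0.54), no table term (-0.54), or the top transcript (-0.39).

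*his-41*, the H2B partner of *his-35* on the opposite strand, had 54.9, 57.3, 43.5, 38.3, 58.5, and 47.6 FPKM and a difference of -0.14 (SE 0.18). *his-37*, the H4 gene next to them and the only H4 gene with an intron, had 146, 108, 91.7, 105, 105, and 103 FPKM and a difference of -0.09 (SE 0.16). *his-73* had 0.905, 0.917, 0.950, 1.13, 1.98, and 1.22 FPKM and a difference of -0.10 (SE 0.23). The last of the 5 was *his-60* at -0.06 (SE 0.25). Each of these differences was smaller than its standard error.

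Within pairs the family did not move one way. The pairs were matched by replicate number, although no sample label gives a pairing, and the differences below depend on that matching. T1 was above C1 in 38 of 68 genes, where 51.2% of all genes were, with a median difference of 0.04. T2 was above C2 in 3 of 68, where 37.9% of all genes were, with a median of -0.39. T3 was above C3 in 63 of 68, where 59.3% of all genes were, with a median of 0.85. The medians over all genes were 0.01, -0.07, and 0.11. The SD of the 3 *his* medians was 0.63 (n = 3), larger than the fitted median of 0.19.

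By a change of at least 1.5 times on the log2(FPKM + 1) scale, 7 of 68 genes were higher in T1 than C1 (9.48% of all genes) and 1, *his-35*, was lower (3.52%). In the second pair 0 were higher (4.02% of all genes) and 8, all with 1 exon, were lower (2.58%). In the third pair 58 were higher (14.8%) and 0 lower (10.9%). Of those 58, 56 had 1 exon. The VK2 effect of no *his* gene differed between the tables at an unadjusted p under 0.05 in the limma interaction, where 1.81% of all genes did, and the smallest such p among them was 0.137 for *his-35*.

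All 59 tested genes of the 4 core classes with 1 exon were lower in T2 than C2 and higher in T3 than C3. In the first pair the classes parted. H2B was higher in T1 in 11 of 15 genes (median 0.27), H3 in 10 of 15 (median 0.14), and H2A in 8 of 14 (median 0.11), while H4 was higher in 4 of 15 (median -0.20). With quantile normalization the counts in T1 fell to 4 of 14 for H2A, 6 of 15 for H3, and 2 of 15 for H4, with 9 of 15 for H2B and 25 of 68 for the family. With upper quartile scaling they were 9, 13, 5, and 13 for H2A, H3, H4, and H2B and 45 for the family. The first pair has 1 library on each side, so the difference between classes has no replicate check.

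**Figure D3:**
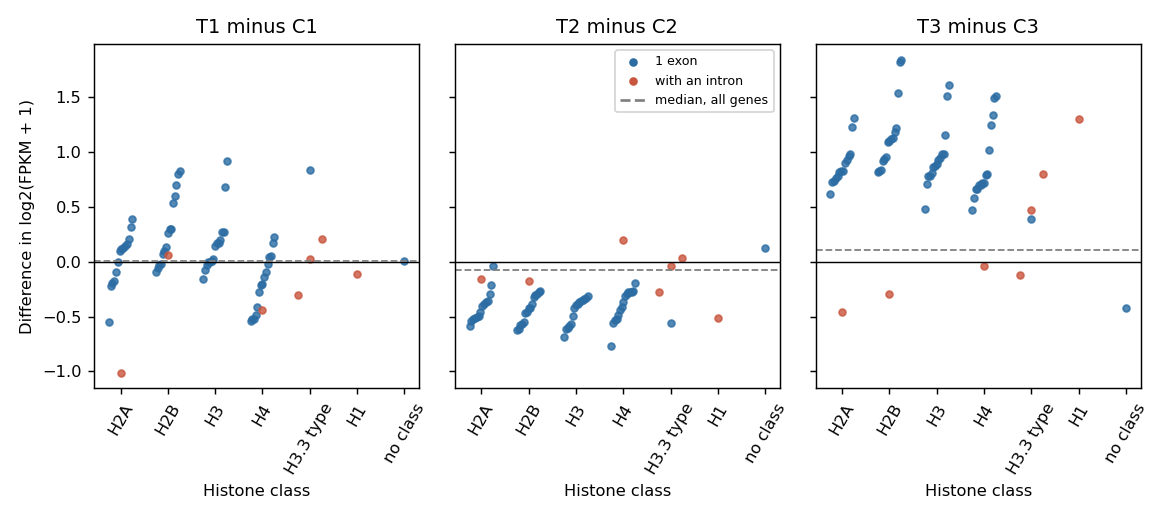
Difference in log2(FPKM + 1) between VK2 and control in each pair, by histone class, for genes of 1 exon (blue) and genes with an intron (red), with the median of all genes as a dashed line. Points scatter around 0 in the first pair, lie below 0 for 65 of 68 genes in the second, and lie above 0 for 63 of 68 in the third.

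Set beside C2, T2, and T3, library C3 had low levels of 1-exon *his* genes. C3 was the lowest library of the second table in 63 of 68 genes, where 49% of all genes had it lowest. On the log2(FPKM + 1) scale it was below the mean of the other 3 by at least 1.5 times in 57 (16.5% of all genes), or 38 with upper quartile scaling. It was above that mean by as much in 0 (10.1%). The median ratio of C3 to the mean FPKM of the other 3 was 0.563 for genes with 1 exon, 1.05 for genes with an intron, and 0.898 for all genes. Against single libraries the median ratio of the 1-exon genes was 0.498 to C2, 0.669 to T2, and 0.533 to T3.

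The rest of the second table was ordered too. The order C2, T3, T2, C3 from high to low held in 51 of 68 genes, where 14.4% of all genes showed it. With upper quartile scaling it held in 22, while the number with C3 lowest was 63. Among the 1-exon genes T2 was at a median of 0.744 of C2, and T3 at 1.26 of T2, and among those with an intron at 0.898 and 1.16. By summed FPKM of the 1-exon genes, both VK2 libraries of the second table lay between the controls C2 and C3.

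On the log2(FPKM + 1) scale, the lowest C3 values relative to the other 3 were in *his-34*, *his-29*, and *his-31*. Their C3 levels were 0.279, 0.290, and 0.271 of the mean FPKM. *his-31* (H4) had 4.93, 3.14, 15.9, 8.88, 3.23, and 10.9 FPKM. The highest C3 values on that log2 scale were in *his-35*, *his-73*, and *his-41*, at 1.45, 1.79, and 1.36 of the mean FPKM. *his-31*, *his-29*, and *his-34* are neighbors, and *his-35* and *his-41* are a head-to-head pair.

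C3's shortfall differed by chromosomal cluster. In the cluster at chrIV:8331044-8336340 (*his-29*, *his-31*, *his-32*, and *his-34*), C3 was at 0.271 to 0.334 of the mean of C2, T2, and T3. The H2A members of that cluster, listed in the second table only, had the same pattern, with 16.4, 11.9, 5.06, and 20.1 FPKM in C2, T2, C3, and T3 for *his-30* and 18.1, 12.4, 5.08, and 21 for *his-33*. In the cluster at chrV:16040144-16042831 (*his-1* to *his-4*), C3 was at 0.365 to 0.409. All 4 core classes are present in both clusters, and each class was low there.

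In the other 9 clusters the median ratio was between 0.464 and 0.624. The 13 genes at chrII:13817760-13828697 had ratios of 0.548 to 0.727, and the 8 genes at chrIV:11324056-11341703, a cluster with a median of 654 FPKM in C2, had 0.544 to 0.669. Neither cluster overlapped with the low ones. Since the clusters were picked out by their C3 values, these are descriptions without a test.

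**Figure D4:**
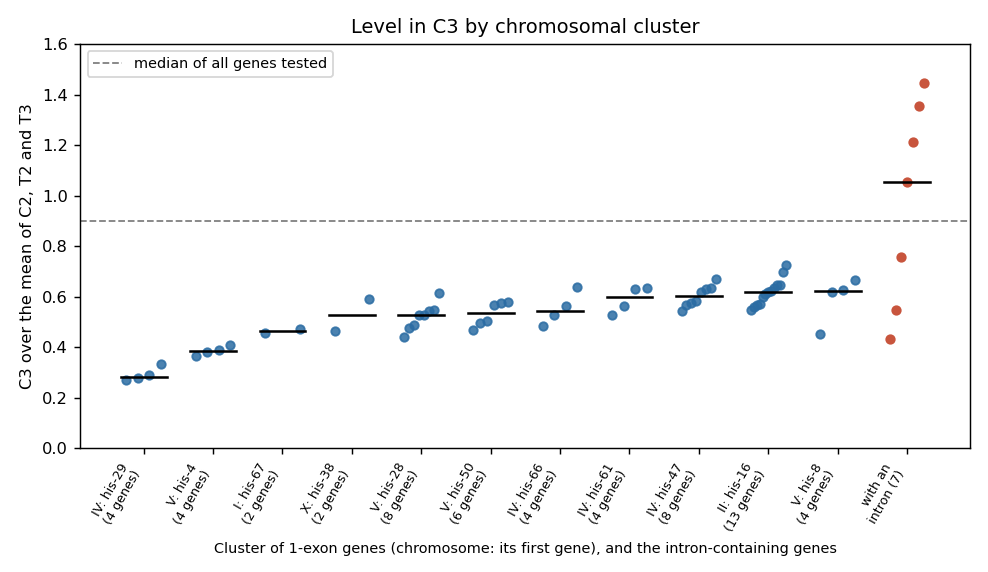
FPKM in C3 over the mean of C2, T2, and T3 for each gene, by cluster of 1-exon genes (named by chromosome and first gene), with genes with an intron in red at the right, bars at the medians, and the dashed line at the median of all genes, 0.898. The chromosome IV cluster that begins with *his-29* is lowest, at 0.271 to 0.334, and the genes with an intron spread from 0.432 to 1.45.

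Markers of dividing and reproductive tissue were low in C3 as well. The 10 germ line markers summed to 419 FPKM in C3 against 593 to 731 in C2, T2, and T3, and 9 of 10 were lowest in C3. The 8 oocyte markers were all lowest in C3, as were all 5 early embryo markers tested and all 6 sperm markers tested. With the markers not tested included, the early embryo markers summed to 183 FPKM in C3 against 324 to 379. The sperm markers, with those not tested included, summed to 50.8 against 79.7 to 86.4. Of 6 markers of later embryos and larvae, 5 were lowest in C3, at 43.6 FPKM in sum against 59.8 to 71.7. Body wall muscle markers summed to 1279 FPKM in C3 against 1169 to 1447, and none of the 4 was lowest there, nor was any of the 4 hypodermis markers. Of the 4 neuron markers 3 were lowest in C3, where 49% of all genes were. The 4 summed to 109 FPKM there against 99.9 to 113 in C2, T2, and T3. The 5 intestine markers summed to 2311 FPKM in C3 against 3199 to 4067, with 2 of the 5 lowest there. Their median ratio of C3 to the mean of C2, T2, and T3 was 1.04, and *elt-2* and *act-5* were highest in C3. The intestinal sum turned on the yolk protein gene *vit-2*, at 291 FPKM in C3 against 1560 to 2047. No marker gene in the tables was at 0 in all libraries. The part of these tissues in the *his* values was not tested, and in whole worms fewer cells of a type and less RNA per cell cannot be told apart. In the first table the germ line markers summed to 1568 FPKM in C1 and 1714 in T1. Their median ratio of the second table to the first was 0.365, against 0.601 for all genes and 18.7 for the 1-exon *his* genes. Whether tissue content has a part in the difference between tables was not tested.

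Within head-to-head pairs the balance of the partners differed between tables. For the 14 pairs of H4 with H3, the median ratio of H4 to H3 was 2.31 in C1 and 1.89 in T1 but 0.772 in C2, 0.810 in T2, 0.803 in T3, and 0.914 in C3. In 13 of 14 pairs both libraries of the first table were above all 4 of the second. The ratio was lower in T1 than in C1 in 11 of 14, and within the second table the medians stayed between 0.772 and 0.914. The widest was *his-60* over *his-59*, at 12.4 in C1 and 7.06 in T1, against 0.848 to 0.886 in the second table.

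For 1-exon genes, 13 pairs of H2A with H2B are listed in both tables. The median ratio of H2A to H2B was 1.67 in C1, 1.34 in T1, 0.660 in C2, 0.699 in T2, 0.644 in T3, and 0.727 in C3. Both libraries of the first table were above all 4 of the second in 11 of 13 pairs, and the ratio was lower in T1 than in C1 in 9. The pair with introns, *his-35* over *his-41*, did not share this, at 2.07 in C1, 0.974 in T1, and 1.02 to 1.15 in the second table. The single pair of H4 with H2A on chromosome I, *his-67* and *his-68*, went the other way, at 0.552 and 0.542 in the first table and 3.96 to 5.24 in the second. Both ratios use FPKM, which is scaled by transcript length, and how well this makes short partners of different length comparable was not tested.

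**Figure D5:**
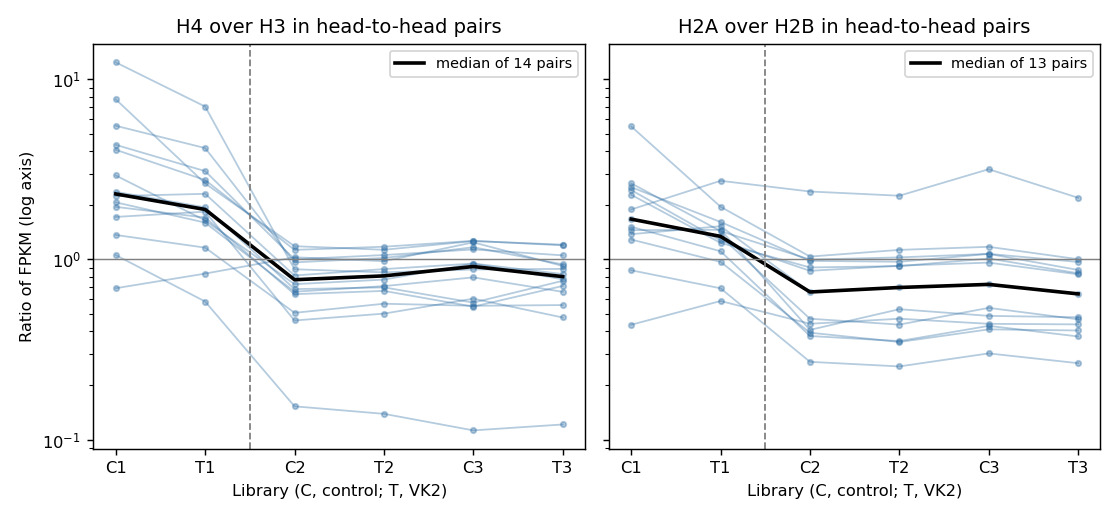
Ratio of FPKM between the partners of head-to-head pairs of 1-exon genes in each library on a log axis, H4 over H3 at the left (14 pairs) and H2A over H2B at the right (13 pairs), with each thin line 1 pair and the thick line the median. The H4 over H3 median falls from 2.31 in C1 and 1.89 in T1 to between 0.772 and 0.914 in the second table.

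Copies under 1 annotation name ranged from nearly equal values to 2.99 times apart. *his-29* and *his-34* were at a ratio of 1.00 in C1 and at most 1.12 in any library, and *his-46* and *his-56* at no more than 1.09. The widest ratio in any library among the 14 names was in C1, for *his-9*, *his-13*, and *his-25*, with the highest copy at 2.99 times the lowest. The ratio of this H3 group was 1.49 in T1 and 1.76 to 1.83 in the second table. The H2A copies *his-47*, *his-57*, and *his-65* were further apart than that group in T1. Their ratio was 1.88 in C1, 2.12 in T1, and 1.76 to 1.98 in the second table.

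Most genes that work with histones were lowest in C3, by differing amounts, and their lists were lower in the second table than in the first. Of all genes tested, 49% had C3 as the lowest library of the second table. In 16.5% of them C3 was below the mean of C2, T2, and T3 by at least 1.5 times on the log2(FPKM + 1) scale. That far below were 9 of 10 linker and variant histones, 2 of 7 RNA factors, 6 of 14 chaperones, 20 of 28 DNA replication genes, and 13 of 20 cell cycle genes. Without C3 the fitted difference was above 0 in 3, 1, 1, 0, and 0 of them, so the counts above 0 given next rested on C3. In that fit 7 of 28 DNA replication genes and 1 of 20 cell cycle genes were lower in VK2 at an unadjusted p under 0.05 by limma. Of all 14191 genes, 489 were lower and 534 higher at that threshold, and 42% had a fitted difference above 0. With C3 in the fit, 55.1% of all genes had a fitted difference above 0. At an unadjusted p under 0.05 by limma 2.87% of all genes were higher and 0.705% lower. Of 10 linker and variant histones outside the *his* symbol that were tested, 10 had a fitted difference above 0, 1 had an unadjusted p under 0.05, and 9 were lowest in C3. That gene was *hil-1*, a linker histone, with 35.3, 43, 12, 34.1, 15.2, and 24.9 FPKM, a difference of 0.80 (SE 0.23), and an adjusted p of 1.00 by limma, higher in VK2 in 3 of 3 pairs. Without T2 its difference was 0.60 and the unadjusted p was no longer under 0.05. The next smallest p in that list were those of *htas-1*, an H2A variant of sperm, and *hil-3*, another linker histone, whose C3 levels were 0.588 and 0.573 of the mean of the other 3. The list's median ratio between tables was 0.435.

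Of 7 factors of histone RNA ends and small RNA, 6 had a difference above 0 (55.1% of all genes), 0 had a p under 0.05, and 7 were lowest in C3 (49% of all genes). Among them *cdl-1*, which encodes the protein that binds the stem-loop of histone RNA, had 149, 133, 77.0, 63.7, 33, and 59.9 FPKM. The 3 with the smallest p were the Argonaute *csr-1* and the poly(U) polymerases *pup-2* and *cid-1*, with C3 ratios of 0.831, 0.576, and 0.75. Of 14 histone chaperones and assembly factors, 11 were above 0, 0 had a p under 0.05, and 13 were lowest in C3, and the 3 with the smallest p were *knl-2*, a centromere protein, *nasp-2*, and *asfl-1*, with C3 ratios of 0.625, 0.422, and 0.572.

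All 28 DNA replication genes were lowest in C3 (49% of all genes), with 24 above 0 in the fit (55.1% of all genes) and 0 with a p under 0.05. They summed to 2996, 2650, 1254, 1008, 656, and 1070 FPKM, so C3 had the lowest sum and the order C2, T3, T2, C3 held here as well. It held in 20 of the 28 genes singly, where 14.4% of all genes showed it. *mcm-7*, a subunit of the replicative helicase, had 143, 135, 60.2, 49.5, 25.2, and 51.9 FPKM, and *rfc-2* and *dna-2* had C3 ratios of 0.535 and 0.586. All 20 cell cycle genes were lowest in C3 too, with 17 above 0 and 0 with a p under 0.05, and the cyclins *cye-1* and *cyb-1* and the kinetochore gene *ndc-80* had C3 ratios of 0.594, 0.466, and 0.615. The median ratio of the second table to the first was 0.348 for DNA replication and 0.393 for the cell cycle, below that of all genes, where the 1-exon *his* genes were at 18.7.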

How the data were processed

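RNA of 3 control and 3 VK2 libraries was prepared with a KAPA Stranded RNA-Seq kit. The authors aligned the reads to WBcel235 with Hisat2, and deposited 2 tables of FPKM per transcript, calculated with Ballgown. The submitters' processing notes also list cutadapt, StringTie, HISAT2 2.1.0, and STAR 2.5.2b, with no role given. How reads that map to several loci were handled was not given in the sources used here, which matters for histone copies that may share reads. Since FPKM holds no read totals, depth and the precision it gives are unknown.

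FPKM was summed over transcripts, and the 14191 genes that both tables list and whose mean FPKM was 1 or more were tested with limma 3.58.1 in R 4.3.3 (trend on, two-sided, log2(FPKM + 1), terms for VK2 and table, Benjamini-Hochberg adjustment), after the fit was checked on simulated data. Python 3.11.15, pandas 2.3.3, numpy 2.4.6, and matplotlib 3.10.9 were also used. Positions, exons, and residues came from Ensembl release 115, and the class of each gene from general knowledge. A planned split by stem-loop was not made, as no sequence was at hand, and genes were divided by exon number instead. Clusters are runs of tested 1-exon genes less than 20000 bp apart, and head-to-head partners are less than 1000 bp apart.

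The members and lists were chosen with earlier results of these data known. Genes are named if they were among the 3 highest of a class, had an unadjusted p under 0.05, were among the 5 largest fitted rises or falls, changed by 1.5 times the same way in all 3 pairs (0 *his* genes did), were among the 3 most extreme in C3, were of the H1 or H3.3 type, or had one of the 3 smallest p of a companion list. Other genes were named after their values were seen. A companion or marker gene without a value in the tables was not analysed here.

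Libraries were paired by replicate number, although no sample label says that the numbers mark pairs. After group means were removed, r across genes was 0.881 between C1 and T1, which also share the first table. It was 0.556 between C2 and T2 and 0.543 between C3 and T3, below C2 with T3 (0.613) and C3 with T2 (0.608). These values do not show a pairing by number within the second table. The alternatives were other pseudocounts (0.1, 5), a minimum mean of 0 or 5 FPKM, quantile normalization, upper quartile scaling, a model without the table, the second table alone, the replicate block, the top transcript, and each library left out. Scaling of the counts by library and the list counts without C3 were added after the data were seen.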

Additional observations from a re-analysis of the deposited data

How the results depend on the processing

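The count of *his* genes with a fitted difference above 0 (59) kept within 1.5 times under every alternative in pseudocount, filter, scaling, model, and libraries except leaving out C3, with 16 to 63 as each library was left out, and the median ranged from -0.12 to 0.44. With the replicate block (paired by number) it was 59 with a median of 0.19, and the block changed no call of a *his* gene. The number higher at an unadjusted p under 0.05 was 0 to 16, with 16 without C2, where 990 of all 14191 genes were higher. The number lower, 1, became 0 with quantile normalization, upper quartile scaling, no table term, the second table alone, and the top transcript. It was 0 to 2 with a library left out. Genes past an adjusted p of 0.05 numbered 0 to 2 of all genes as libraries were left out. By scaling, T1 was above C1 in 25 *his* genes with quantile normalization (4 of H2A, 6 of H3, and 2 of H4 with 1 exon), T2 above C2 in 5 with either scaling, and the order C2, T3, T2, C3 held in 22 with upper quartile scaling. Signs turned for *his-29* (-0.18 to 0.93 with a library left out), *his-34* (-0.22 to 0.93), *his-37* (-0.20 to 0.0801, and 0.0801 in the second table alone), *his-41* (-0.24 to 0.0115), *his-60* (-0.35 to 0.18, 0.0268 with quantile normalization, and 0.18 in the second table alone), and *his-73* (-0.25 to 0.0936). *his-4*, *his-20*, and *his-22* had an unadjusted p under 0.05 only without C2, at differences of 1.00, 0.88, and 0.85 by limma. *hil-1* missed it with no table term in limma. Where the first table is left with 1 library, the comparison rests on the second. The cause of these changes was not tested.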
